A study of Homo sapiens with 4 samples.

Results

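The *ID* genes and the BMP branch of TGF-β family signalling were followed in OVCA420 cells, a human epithelial ovarian cancer cell line, during treatment with TGF-β1. The group holds 10 genes that were chosen by name from the 33694 genes in the count tables: the targets *ID1*, *ID2*, *ID3* and *ID4*, the signal transducers *SMAD1* and *SMAD5*, the inhibitors *SMAD6* and *BAMBI*, and the ligands *BMP4* and *BMP7*. Single-cell RNA-seq (10x Genomics, 3′ tags) was performed on untreated cells (Ctrl) and on cells given TGF-β1 at 10 ng/mL for 1, 3 or 7 days (1-day, 3-day and 7-day). All groups were grown in the same serum-containing medium, and per the study's methods the treatments were started at different times so that all cells were collected together. By the same methods TGF-β1 was renewed at intervals with new medium, and cells were passaged as needed but not shortly before collection. The time from the last renewal to collection is not given for each group. Each condition is 1 library, so no difference was tested and no p-value is given.

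Counts of unique molecular identifiers (UMIs) were summed over the cells retained, 933 in Ctrl and then 937, 705 and 569 along the time course. Levels are given as CPM, the usual scaling of those sums to a common library total, with exact Poisson 95% intervals, and ratios are on the log2 scale with exact conditional 95% intervals. Both cover counting error only, and neither the spread among cells of a library nor the difference between separate cultures. The libraries hold between 25382817 and 32949874 UMIs in these cells, with a median per cell between 30270 and 43553. All 10 genes had at least 50 UMIs over the 4 libraries, as did 14182 genes in all, which serve as the background below.

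The cells carried the markers of an epithelial line in every library. *EPCAM* was between 297 and 361 CPM, and *KRT7*, *KRT8*, *KRT18*, *KRT19* and *CDH1* were present in all 4 libraries, whereas *WFDC2*, *MSLN* and *PAX8* were at most 0.333 CPM, *MUC1* at most 1.000 CPM, and *MUC16* was 2.97 CPM in Ctrl and at most 0.425 CPM after treatment. The 9 leukocyte markers summed to between 0.118 and 0.833 CPM, with *CD2*, *MS4A1* and *NKG7* at 0 in every library, the 6 fibroblast and smooth muscle markers to between 1.21 and 1.60 CPM, and the 3 erythroid markers to at most 0.367 CPM. The 4 endothelial markers summed to 5.40 CPM in Ctrl and to at most 0.473 CPM after treatment, nearly all of it *CDH5* in Ctrl. Genes known to respond to TGF-β were listed with earlier results of these data known, so their counts are no test of the treatment. Of 14 such genes, 12, 14 and 13 were at least 2-fold higher than Ctrl in order of time. Of all genes with at least 50 UMIs, 11%, 11.8% and 13.8% were.

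BMP ligands bind pairs of type I and type II serine/threonine kinase receptors, which phosphorylate SMAD1, SMAD5 and SMAD9. These then join SMAD4 and act on GC-rich elements in target genes. The *ID* genes are the best known of those targets. ID proteins have a helix-loop-helix but no basic region, so they pair with E proteins and other basic helix-loop-helix factors and keep them from DNA, and they are known for holding cells in proliferation and out of differentiation. TGF-β itself signals mainly through SMAD2 and SMAD3, and in many epithelial cells it is known to lower *ID* transcription where BMP raises it. SMAD6 blocks the BMP SMADs and BAMBI is a receptor-like membrane protein without a kinase domain, and both are themselves induced by BMP signalling.

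The DNA upstream of these genes was searched for the GC-rich type of element known from BMP-responsive enhancers, written here as GGCGCCNNNNNGNC on either strand, in the 2000 bases before each gene's start in GRCh38 (GENCODE release 44). It was present upstream of 3 of the 10 genes, *ID1*, *SMAD6* and *BAMBI*, and upstream of 9.20% of 20033 protein-coding genes (1844 genes). The stricter form GGCGCCNNNNNGAC was present upstream of *ID1* and *BAMBI*, against 1.14% of protein-coding genes (228 genes). The stretches that hold a match are shown because they belong to the main target and to both inhibitors described below, each on the plus strand with the fixed letters of the match in capitals.
*ID1*, chr20:31604294-31604367, 959 bases before the start: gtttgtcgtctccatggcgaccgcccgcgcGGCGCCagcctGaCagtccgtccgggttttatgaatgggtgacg
*BAMBI*, chr10:28676757-28676830, 723 bases before the start, match on the minus strand: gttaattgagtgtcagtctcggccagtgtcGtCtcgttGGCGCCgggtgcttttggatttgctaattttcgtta
*SMAD6*, chr15:66700949-66701022, 1257 bases before the start: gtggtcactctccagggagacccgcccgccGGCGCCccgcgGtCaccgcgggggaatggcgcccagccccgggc
In *ID1* the same GGCGCC, which is its own reverse complement, also carried a match on the minus strand, and *SMAD6* had a further match 1085 bases before its start. This form of the element was taken up after a first form, with GTCT at its end, had matched none of the 10 genes, so the shares are no test. A match is a description of the letters and not a shown binding site, and a gene without a match may carry elements of other letters or elsewhere.

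The palindrome GTCTAGAC, formed from the SMAD-binding GTCT and its reverse complement, was also searched for, here in RefSeq promoter windows, which hold the 250 bases before a RefSeq transcript's start (GRCh38.p14). These starts can lie inside the gene as GENCODE draws it, as for *ID2*, *BMP4* and *SMAD1*. For *ID2*, *BMP4* and most windows of *SMAD1* the search upstream of the GENCODE start thus covered another stretch. Of the 10 genes, 9 had such windows, 15 in all. The palindrome was present in 1 of the 15, that of *SMAD6*, and in 0.182% of all 35116 windows (64 windows). The other motifs searched in the same windows, on both strands, were GGCGCC (4 of the 15 windows, 16.4% of all), the SMAD-type CAGACA (1, 13.6%), the ATF-type TGACG (2, 21.2%) and the TATA box TATAAA (3, 10.7%). As the motifs were chosen after the counts had been seen, these shares too are no test, and a match is not a shown binding site. The palindrome lies 12 to 5 bases before the *SMAD6* start and is shown in capitals.
*SMAD6*, chr15:66702172-66702235, plus strand: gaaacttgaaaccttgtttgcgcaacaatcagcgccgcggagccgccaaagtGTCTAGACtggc

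*ID1* (ENSG00000125968, chromosome 20 from 31605283 to 31606515) is the *ID* gene most often used as a readout of BMP signalling. Its level was 270.4 CPM in Ctrl (265 to 276), 108 CPM at 1-day (105 to 112), 62.9 CPM at 3-day (60.2 to 65.7) and 73.2 CPM at 7-day (69.9 to 76.6). Every treated library was below Ctrl, and the lowest level was that at 3-day. The log2 ratio to Ctrl was -1.32 at 1-day (-1.38 to -1.27), -2.10 at 3-day (-2.17 to -2.03) and -1.88 at 7-day (-1.96 to -1.81), which is a level 2.50-, 4.30- and 3.69-fold lower. From 3-day to 7-day the level was slightly higher again, by 0.22 (0.13 to 0.31) on the log2 scale. Without the 10 cells with most *ID1* UMIs in each library, the log2 ratio to Ctrl was -2.14 at 3-day and -1.98 at 7-day.

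*ID2* (ENSG00000115738, chromosome 2 from 8678845 to 8684461) followed a later course. Its level was 144 CPM in Ctrl (140.2 to 149), 136 CPM at 1-day (132 to 139.8), 65.7 CPM at 3-day (62.9 to 68.5) and 39.1 CPM at 7-day (36.7 to 41.6). At 1-day it was thus close to Ctrl, and it was lower at each later time point. The log2 ratio to Ctrl was -0.09 at 1-day (-0.15 to -0.03), -1.14 at 3-day (-1.21 to -1.06) and -1.88 at 7-day (-1.99 to -1.79). The sign at 1-day depended on which cells were taken, since it was 0.26 in cells called G1 and -0.48 in cells called S.

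*ID3* (ENSG00000117318, chromosome 1 from 23557926 to 23559501) was lowest early and then higher. Its level was 46.0 CPM in Ctrl (43.6 to 48.5), 16.2 CPM at 1-day (14.9 to 17.6), 24.5 CPM at 3-day (22.8 to 26.3) and 32.0 CPM at 7-day (29.8 to 34.3). All 3 treated libraries were below Ctrl, and no 2 of the 4 intervals overlapped. The log2 ratio to Ctrl was -1.51 at 1-day (-1.65 to -1.36), -0.91 at 3-day (-1.04 to -0.78) and -0.52 at 7-day (-0.65 to -0.40). The level at 7-day was 69.5% of that in Ctrl, against 27.1% for *ID1* and 27.1% for *ID2* at the same time.

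*ID4* (ENSG00000172201, chromosome 6 from 19837370 to 19842197) was the least counted of the *ID* genes and had the lowest ratios. It had 242 UMIs in Ctrl and then 32, 9 and 9 UMIs along the time course, which is 8.07, 0.971, 0.280 and 0.355 CPM. The log2 ratio to Ctrl was -3.05 at 1-day (-3.63 to -2.52), -4.85 at 3-day (-5.99 to -3.90) and -4.51 at 7-day (-5.65 to -3.56). The 3-day and 7-day levels did not differ beyond counting error.

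The 3 main *ID* genes reached their lowest level at different times: *ID3* at 1-day, *ID1* at 3-day and *ID2* at 7-day, over all cells of a library. Within phases this order did not always hold. In cells called G1, *ID1* was lower at 7-day than at 3-day (36.4 against 49.4 CPM). In S cells *ID1* was 60.5 CPM at 7-day and 69.01 CPM at 3-day, with intervals that overlapped. *ID3* in S cells was 21.2 CPM at 1-day and 19.2 CPM at 3-day, also with overlapping intervals. Since a 3′ tag is counted once per molecule whatever the length of the transcript, the UMIs of the *ID* genes can be added. Together they summed to 469 CPM in Ctrl and then 261, 153 and 145 CPM along the time course. Within that sum *ID1* made up 57.7% in Ctrl and 41.4% at 1-day, while *ID2* went from 30.8% to 52.0%. At 7-day *ID1* made up 50.6%, *ID2* 27.0% and *ID3* 22.1%, the last against 9.81% in Ctrl.

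**Figure D1:**
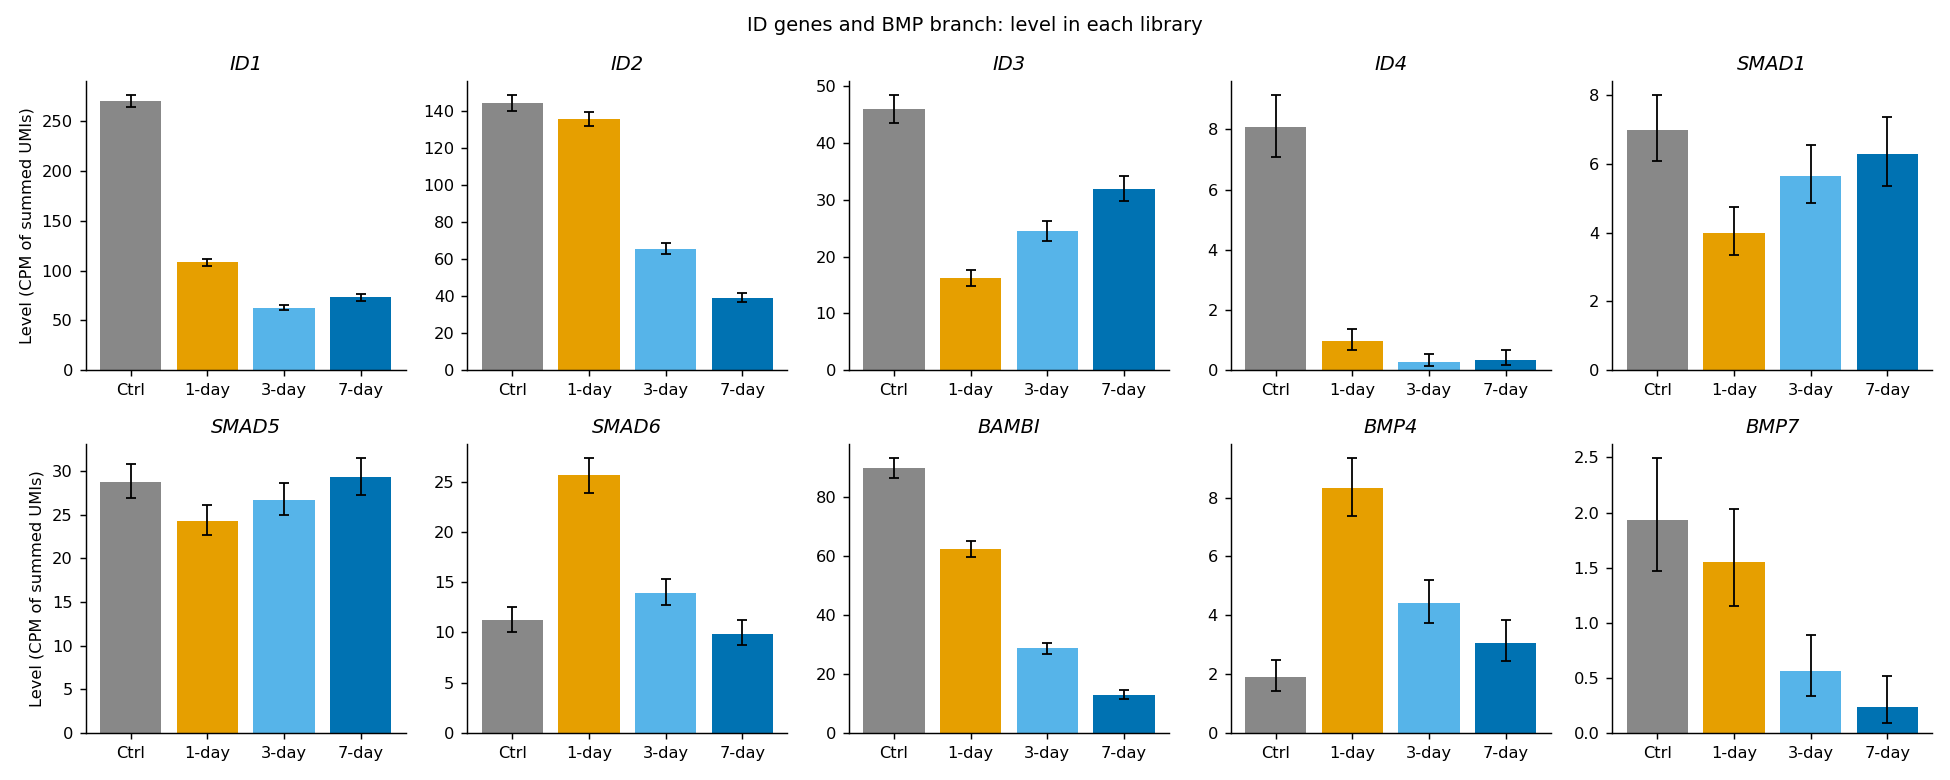
Level of each gene in CPM of summed UMIs (y axis, from 0, a scale of its own in each panel) in the 4 libraries (x axis), with exact Poisson 95% intervals as error bars and 1 library per bar. The lowest bar is 1-day for ID3 (16.2 CPM), 3-day for ID1 (62.9 CPM) and 7-day for ID2 (39.1 CPM), and SMAD6 and BMP4 are highest at 1-day.

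Of the inhibitors, *BAMBI* (ENSG00000095739, chromosome 10 from 28677510 to 28682932) was lower at each time point than at the one before. Its level was 90.0 CPM in Ctrl (86.6 to 93.4), 62.3 CPM at 1-day (59.6 to 65.0), 28.7 CPM at 3-day (26.9 to 30.6) and 13.0 CPM at 7-day (11.6 to 14.5). No intervals overlapped. The log2 ratio to Ctrl was -0.53 at 1-day (-0.61 to -0.45), -1.65 at 3-day (-1.76 to -1.54) and -2.79 at 7-day (-2.96 to -2.63), and the last steps were of like size, -1.12 from 1-day to 3-day and -1.14 from 3-day to 7-day.

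*SMAD6* (ENSG00000137834, chromosome 15 from 66702236 to 66782849) went the other way at first. Its level was 11.2 CPM in Ctrl (10.1 to 12.5), 25.6 CPM at 1-day (23.9 to 27.4), 13.97 CPM at 3-day (12.7 to 15.3) and 9.89 CPM at 7-day (8.70 to 11.2). It was above Ctrl at 1-day and 3-day, and at 7-day its interval overlapped that of Ctrl. The log2 ratio to Ctrl was 1.19 at 1-day (1.01 to 1.38), 0.31 at 3-day (0.11 to 0.52) and -0.18 at 7-day (-0.43 to 0.06). The inhibitors of the BMP branch thus did not share a course: at 1-day *SMAD6* was 2.28-fold higher and *BAMBI* 1.44-fold lower than Ctrl.

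The transducers varied least. *SMAD5* (ENSG00000113658, chromosome 5 from 136132845 to 136188747) was 28.8 CPM in Ctrl and then 24.3, 26.8 and 29.4 CPM along the time course. Its log2 ratio to Ctrl was -0.24 at 1-day (-0.38 to -0.10), -0.11 at 3-day (-0.24 to 0.03) and 0.03 at 7-day (-0.11 to 0.17). The 1-day ratio depended on which cells were taken, at -0.03 in cells called G1, -0.22 in S cells and -0.27 in G2M cells. *SMAD1* (ENSG00000170365, chromosome 4 from 145481194 to 145559176) was 7.00 CPM in Ctrl and then 4.01, 5.66 and 6.30 CPM along the time course. Both were lowest at 1-day, where the log2 ratio of *SMAD1* was -0.81 (-1.13 to -0.48), and its interval at 7-day held 0 (-0.15, -0.46 to 0.15). *SMAD1*, *SMAD5* and *SMAD9* together summed to 37.1 CPM in Ctrl and then 28.6, 33.1 and 37.2 CPM along the time course.

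The ligands were few in UMIs. *BMP4* (ENSG00000125378, chromosome 14 from 53949736 to 53958761) had 57 UMIs in Ctrl and then 274, 142 and 78 UMIs along the time course, which is 1.90, 8.32, 4.42 and 3.07 CPM. All 3 treated libraries were above Ctrl, with log2 ratios of 2.13 at 1-day (1.71 to 2.57), 1.22 at 3-day (0.76 to 1.69) and 0.69 at 7-day (0.18 to 1.21). The 7-day ratio depended on which cells were taken, at 0.09 in the earlier cells in barcode order, 1.27 in the later ones and 0.10 in cells called G1, where the 3-day ratio was 0.72. *BMP7* (ENSG00000101144, chromosome 20 from 57168753 to 57266641) had 58 UMIs in Ctrl and then 51, 18 and 6 UMIs along the time course, which is 1.93, 1.55, 0.560 and 0.236 CPM. Its log2 ratio to Ctrl was -0.32 at 1-day (-0.89 to 0.25), -1.79 at 3-day (-2.64 to -1.004) and -3.03 at 7-day (-4.54 to -1.82). *BMP4* and *BMP7* thus lay on opposite sides of Ctrl at 3-day and 7-day, and the few UMIs of *BMP7* came from few cells, with 50% of those in Ctrl in the 10 cells that had most. Without those cells in each library its log2 ratio was 0.05 at 1-day and -3.37 at 3-day. At 3-day its 18 UMIs lay in 13 cells and 83.3% of them in the 10 left out. The value of -3.37 thus rests on very few UMIs and follows from how few cells held the gene.

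The 10 genes were set against all 14182 genes, and all ratios to Ctrl share that library. At 1-day 2 of the 10 were at least 2-fold higher than Ctrl (*SMAD6* and *BMP4*), against 11% of all genes, and 3 were at least 2-fold lower (*ID1*, *ID3* and *ID4*), against 11.7%. At 3-day *BMP4* alone was 2-fold higher, against 11.8% of all genes, and 5 were lower (*ID1*, *ID2*, *ID4*, *BAMBI* and *BMP7*), against 10.3%. At 7-day 0 were 2-fold higher, against 13.8% of all genes, and the 5 that were lower at 3-day were lower again, against 9.48%. The median log2 ratio of the 10 genes was -0.43 at 1-day, -1.02 at 3-day and -1.20 at 7-day, where that of all genes was -0.07, -0.01 and 0.07.

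Between neighbouring time points, 0 of the 10 were at least 2-fold higher at 3-day than at 1-day, against 6.4% of all genes, and 4 were lower (*ID2*, *ID4*, *BAMBI* and *BMP7*), against 5.83%. From 3-day to 7-day 0 were 2-fold higher, against 3.83%, and 2 were lower (*BAMBI* and *BMP7*), against 2.37%. The median log2 ratio of the 10 genes was -0.89 for the earlier step and -0.18 for the later one, against 0.08 and 0.08 for all genes. As the genes were named for their shared pathway and with results of these libraries already known, these counts describe them and are no test of the pathway.

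**Figure D2:**
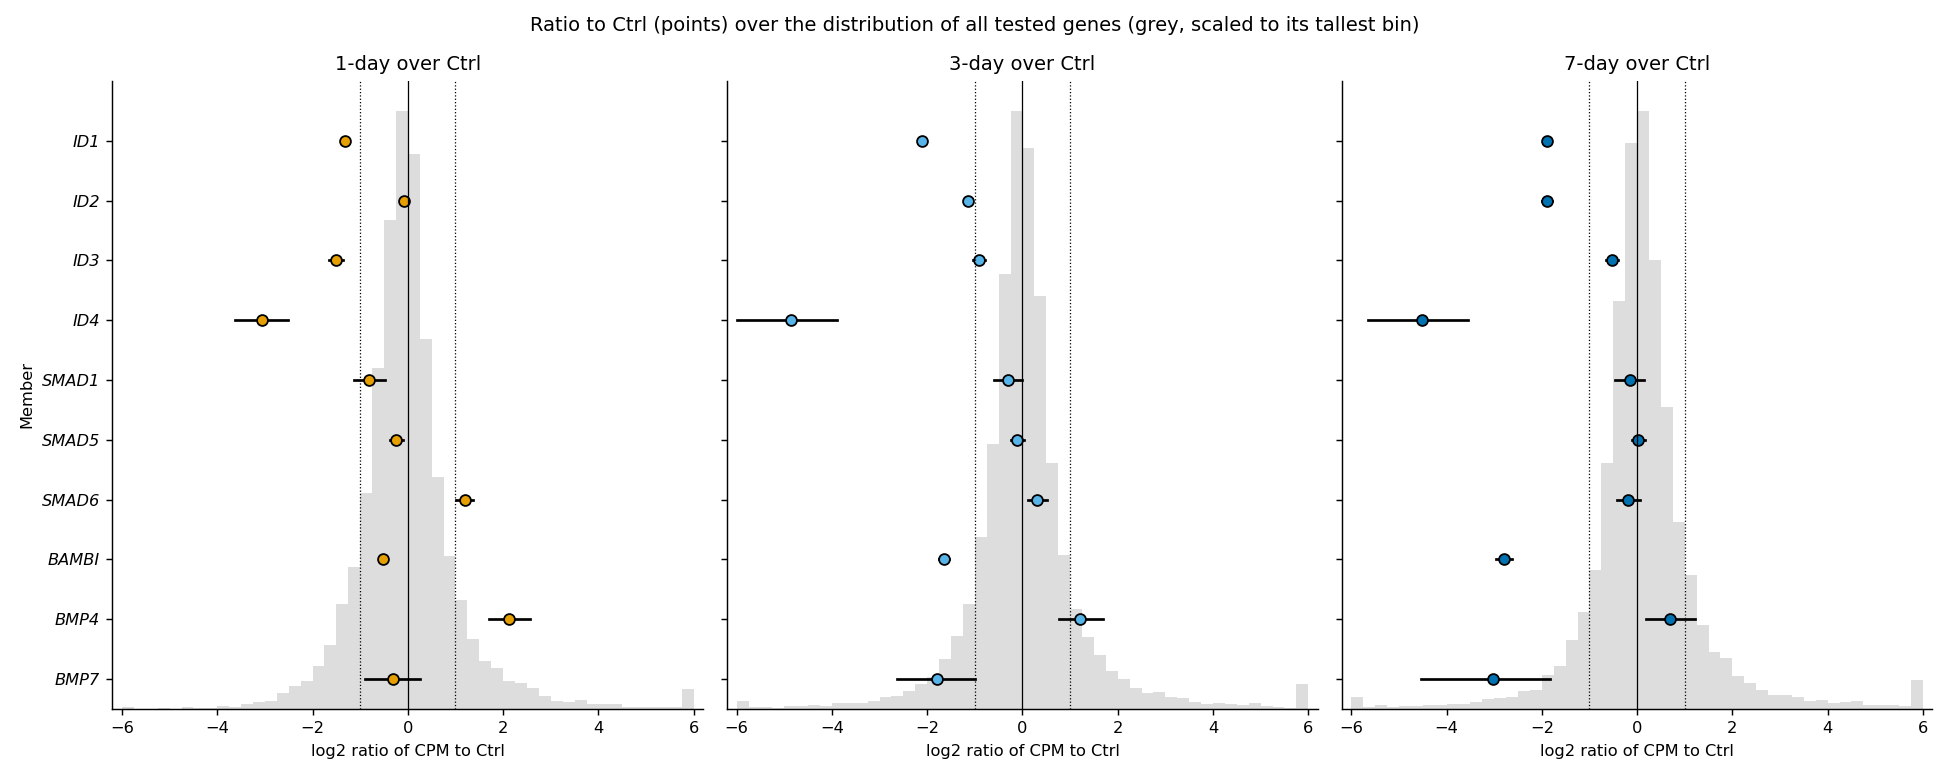
Log2 ratio of CPM to Ctrl (x axis) for each of the 10 genes (y axis) at 1-day, 3-day and 7-day, with exact conditional 95% intervals as black lines and dotted lines at a 2-fold difference. The grey histogram holds the 14182 genes, scaled to its tallest bin, with genes beyond 6 in the end bins; at 7-day ID1, ID2, ID4, BAMBI and BMP7 lie beyond the left dotted line.

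The levels above are relative to all UMIs of a library, and the cells of the later libraries held more UMIs each. Without scaling by the total, as mean UMIs per cell, the median of all genes was higher than in Ctrl by 0.06 at 1-day, 0.50 at 3-day and 0.55 at 7-day on the log2 scale. In UMIs per cell, *ID1* went from 8.69 in Ctrl to 3.80, 2.87 and 3.27, *ID2* from 4.65 to 4.77, 2.99 and 1.75, and *BAMBI* from 2.89 to 2.19, 1.31 and 0.580 in order of time. *ID3* went from 1.48 to 0.570, 1.12 and 1.43, so that at 7-day a cell held nearly as many *ID3* UMIs as in Ctrl while all genes together held more. On that scale the sign turned for *ID2* at 1-day (0.04), for *SMAD1* at 3-day (0.20) and 7-day (0.32), for *SMAD5* at 3-day (0.40) and for *SMAD6* at 7-day (0.29), and the ratios of *ID1*, *ID3*, *ID4*, *BAMBI*, *BMP4* and *BMP7* kept theirs.

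The libraries also differed in cell cycle phase, as called from the Seurat gene lists. Cells called G1 made up 24.1% of all cells in Ctrl and then 73.7%, 48.1% and 38.8%. The share called G2M was 39.5% in Ctrl and then 16.3%, 32.6% and 41.3% along the time course. The levels of the *ID* genes were therefore also taken within each phase, where a phase is a range of a score and not a sorted fraction. Cells called G1 were not alike in all libraries: *TOP2A*, a gene of cycling cells, was 89.2 CPM in G1 cells of Ctrl and 18.6, 24.8 and 36.7 CPM in those of the treated libraries, and *MKI67* was 16.9 CPM and then 4.57, 4.07 and 9.27 CPM. The part of this difference in the values by phase was not tested.

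*ID1* was close to even across the cycle in Ctrl and uneven after treatment. In Ctrl its level was 268 CPM in G1 cells, 253 CPM in S cells and 287 CPM in G2M cells. At 1-day it was 93.4 CPM in G1 and 166 CPM in G2M cells, at 3-day 49.4 and 76.5 CPM, and at 7-day 36.4 and 112 CPM. The log2 ratio of G2M to G1 cells was 0.09 in Ctrl (0.01 to 0.18), 0.83 at 1-day (0.72 to 0.94), 0.63 at 3-day (0.49 to 0.77) and 1.62 at 7-day (1.45 to 1.79). Relative to Ctrl cells with the same phase call, 7-day cells had a log2 ratio of -2.88 in G1, -2.06 in S and -1.36 in G2M. The higher *ID1* level at 7-day than at 3-day was found in G2M cells, 112 CPM (105 to 118) against 76.5 CPM (71.6 to 81.6), whereas in G1 cells it was lower, 36.4 CPM (32.7 to 40.4) against 49.4 CPM (45.9 to 53.2). The median depth of G1 and G2M cells was 43159 and 44913 UMIs at 7-day and 27874 and 31987 UMIs in Ctrl.

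*ID2* shared the G2M excess at 7-day, with 25.7 CPM in G1 and 55.8 CPM in G2M cells (log2 ratio 1.12, 0.91 to 1.34). In Ctrl its log2 ratio of G2M to G1 cells was 0.44 (0.32 to 0.57), at 1-day 0.18 (0.07 to 0.29) and at 3-day 0.01 (-0.12 to 0.15). *ID3* did not follow: its log2 ratio of G2M to G1 cells was 0.38 in Ctrl (0.16 to 0.61), -0.17 at 1-day (-0.52 to 0.17), -0.59 at 3-day (-0.82 to -0.36) and 0.24 at 7-day (0.01 to 0.47). At 3-day *ID3* was 30.2 CPM in G1 cells against 20.1 CPM in G2M cells, so its log2 ratio to Ctrl of the same phase was -0.24 in G1 but -1.44 in S and -1.21 in G2M cells.

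*SMAD6* was even across the cycle in Ctrl, at 11.0 CPM in G1 and 11.1 CPM in G2M cells, and its 1-day level was high in all phases, at 25.1 CPM in G1, 32.2 CPM in S and 24.2 CPM in G2M cells. At 7-day it was 7.42 CPM in G1 and 12.8 CPM in G2M cells (log2 ratio 0.78, 0.36 to 1.21). *BAMBI* at 7-day was 11.0 CPM in G1 and 16.3 CPM in G2M cells (log2 ratio 0.57, 0.21 to 0.93), and its log2 ratio to Ctrl of the same phase was between -3.18 and -2.57. The differences in these phase ratios between libraries were not tested.

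**Figure D3:**
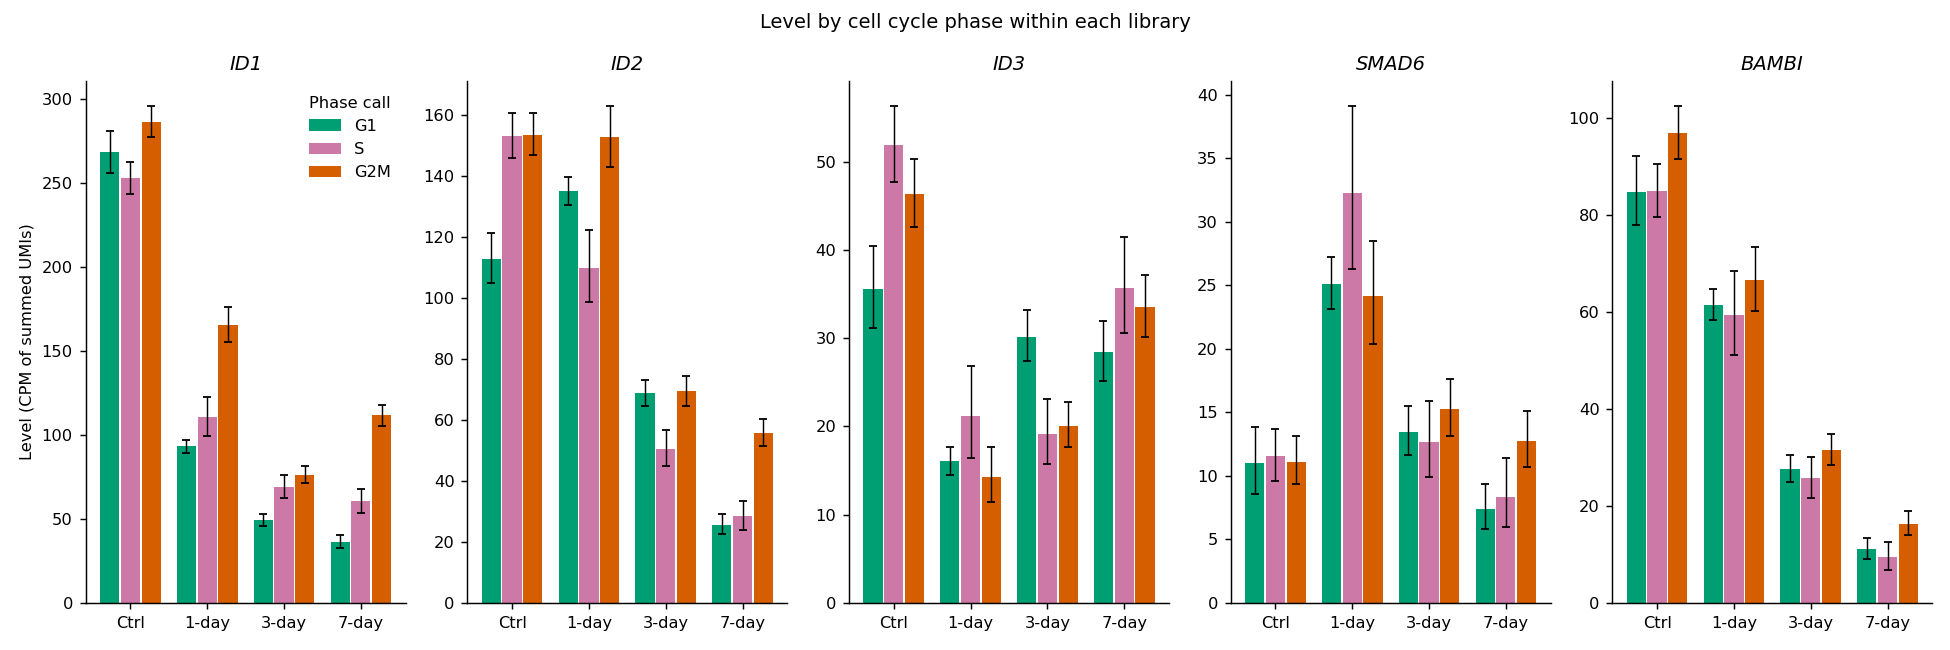
Level in CPM of summed UMIs (y axis, from 0) of ID1, ID2, ID3, SMAD6 and BAMBI in cells called G1, S and G2M (colours) within each library (x axis), with exact Poisson 95% intervals as error bars. ID1 is nearly even in Ctrl (253 to 287 CPM) and runs from 36.4 CPM in G1 to 112 CPM in G2M at 7-day.

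Levels per cell showed whether few or many cells carried each gene. To compare cells of unequal depth, each was thinned to 18000 UMIs, and shallower cells were left out, so that 844 remained in Ctrl and 900, 677 and 549 in the treated libraries. At that depth at least 1 *ID1* UMI was found in 91.5% of Ctrl cells (89.4 to 93.3, exact binomial 95% interval), 72.8% at 1-day, 57.3% at 3-day and 60.3% at 7-day (56.1 to 64.4). Without thinning the shares were 95.4%, 86.3%, 80.0% and 78.2%. The upper end shrank more than the share of positive cells: 24.8% of thinned Ctrl cells had 8 or more *ID1* UMIs, against 2.22% at 1-day, 0.148% at 3-day and 0.729% at 7-day. None of the libraries holds a cell type that lacks these genes, so the share that free RNA would give was not measured.

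*ID2* UMIs were found in 86.7%, 83.1%, 57.9% and 46.8% of thinned cells in order of time, and without thinning in 91.3%, 92.1%, 80.0% and 68.7%. *ID3* UMIs were found in 43.0% of thinned cells in Ctrl (39.6 to 46.4), 18.1% at 1-day (15.6 to 20.8), 29.5% at 3-day and 40.6% at 7-day (36.5 to 44.9), and without thinning in 56.1%, 27.4%, 48.1% and 61.7%. The 7-day share of *ID3* was thus close to that of Ctrl while the share with 4 to 7 UMIs was 1.46% against 5.09%. *ID4* UMIs were found in 12.7% of thinned Ctrl cells and in at most 1.89% of treated cells, and unthinned in 18.8% and at most 3.20%.

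*BAMBI* UMIs were found in 71.1%, 56.9%, 35.2% and 17.3% of thinned cells in order of time, and without thinning in 81.8%, 75.5%, 58.6% and 36.2%. At 3-day 1 cell held 46 *BAMBI* UMIs, and the 10 cells with most held 15.9% of all its UMIs there, but without those cells in each library the 3-day log2 ratio to Ctrl was -1.82. *SMAD6* UMIs were found in 16.6% of thinned cells in Ctrl (14.1 to 19.3), 34.7% at 1-day (31.6 to 37.9), 22.7% at 3-day and 16.4% at 7-day, and *BMP4* UMIs in 2.73%, 14.7%, 7.98% and 4.74%. Unthinned, the shares were 28.6%, 54.7%, 43.97% and 34.6% for *SMAD6* and 5.36%, 22.1%, 15.6% and 11.8% for *BMP4*.

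The spread of UMIs across cells, as variance over mean, differed among the genes and did not follow their level alone. In thinned cells the variance of *ID1* UMIs was 3.36 times the mean in Ctrl and 2.46, 1.78 and 2.81 times the mean later, where counting alone would give a ratio near 1. For *SMAD5* the same ratio was 1.02, 1.00, 0.999 and 0.953 and for *ID4* it was 1.13, 0.982, 0.993 and 0.995, both near the level of counting. For the same relative spread among cells the ratio rises with the mean, so it does not compare the genes as such. The mean per thinned Ctrl cell was 5.16 UMIs for *ID1*, 0.540 for *SMAD5* and 0.146 for *ID4*. The variance ratio of *ID2* lay between 1.32 and 2.08, that of *ID3* between 1.45 and 2.02 and that of *BAMBI* between 1.47 and 3.03. The highest *BAMBI* ratio was at 3-day, at a mean of 0.561 UMIs per thinned cell. In that library 1 cell held 46 *BAMBI* UMIs before thinning. For *ID1* at 7-day the highest count in a cell was likewise 46 UMIs before thinning.

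**Figure D4:**
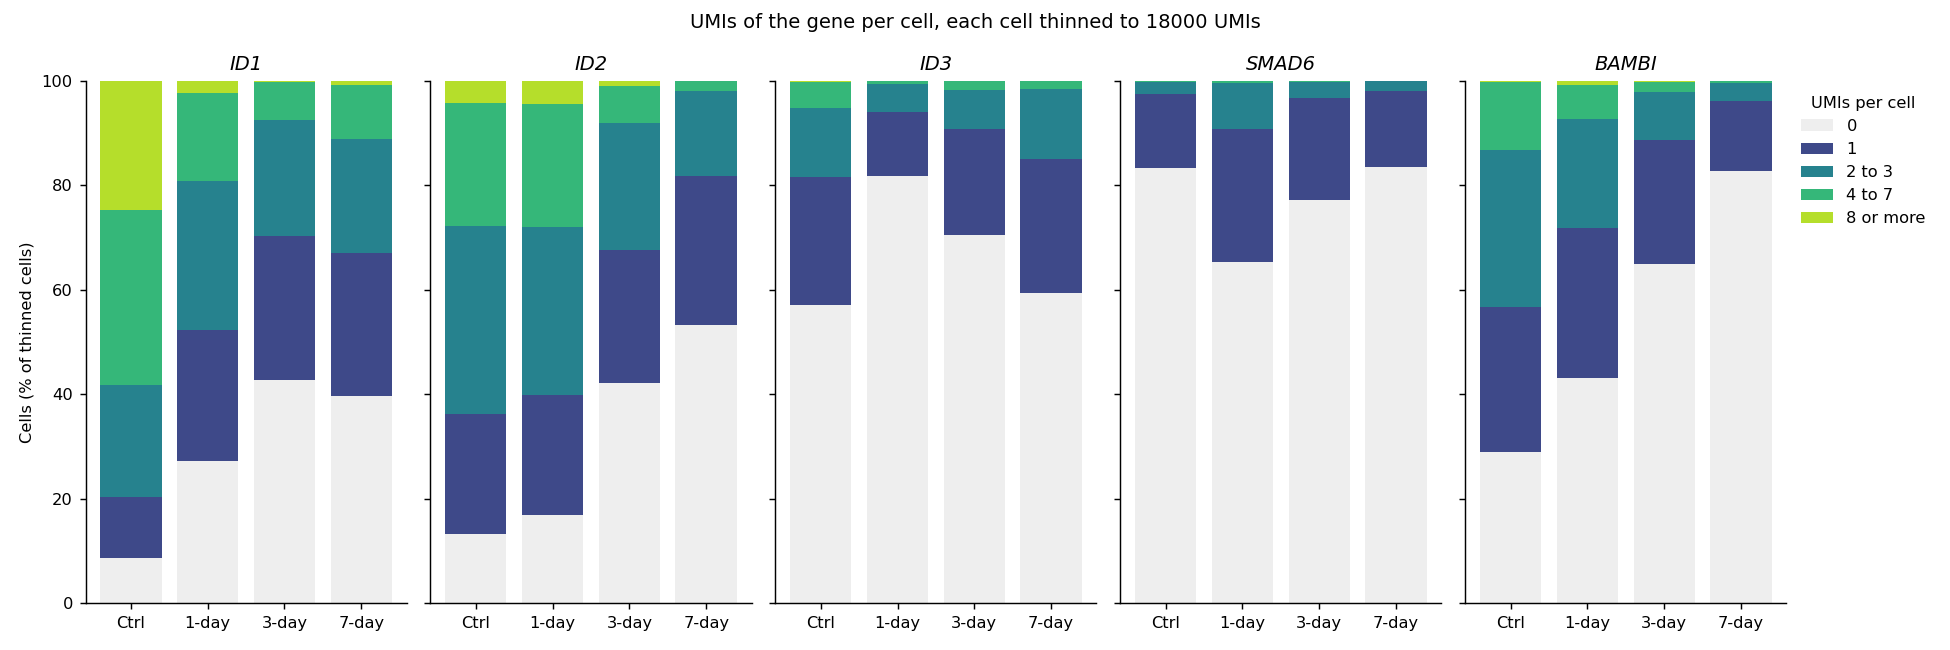
Share of cells (y axis, percent of cells thinned to 18000 UMIs each) by the number of UMIs of ID1, ID2, ID3, SMAD6 and BAMBI in a cell (colours) in the 4 libraries (x axis). The class of 8 or more ID1 UMIs holds 24.8% of Ctrl cells and at most 2.22% of treated cells, and the class of 0 BAMBI UMIs grows at each time point.

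Cells without a UMI of *ID1*, *ID2* and *ID3* at this depth were few in Ctrl and more frequent later. Of thinned cells, 1.18% in Ctrl (0.570 to 2.17), 3.56% at 1-day (2.44 to 4.98), 13.9% at 3-day (11.4 to 16.7) and 15.7% at 7-day (12.7 to 19.0) had no UMI of the 3 genes. The product of the shares without each gene, which is the share if detection of the 3 were unrelated across cells, was 0.645%, 3.76%, 12.7% and 12.5%. All 3 genes were found in 36.7% of thinned Ctrl cells, 10.8% at 1-day, 10.2% at 3-day and 14.2% at 7-day.

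Across the cells of a library, *ID1* and *ID3* had their highest correlation in Ctrl over all phases. Within G1 cells the library with the highest value depended on the measure. Pearson's r between *ID1* and *ID3* in thinned cells was 0.32 in Ctrl (844 cells), 0.02 at 1-day (900 cells), -0.07 at 3-day (677 cells) and 0.10 at 7-day (549 cells). Between *ID1* and *ID2* it was 0.26, 0.09, 0.12 and 0.25, and between *ID2* and *ID3* 0.15, -0.05, -0.04 and 0.02. In Ctrl cells called G1 (225 cells, not thinned) the r between *ID1* and *ID3* was 0.17, and in 7-day cells called G1 (221 cells) it was 0.22. Spearman's rho, taken on ranks, was 0.16 in the same Ctrl cells and 0.13 in the same 7-day cells. These values describe cells that share a library, a culture and a depth, and sparse counts lower such values. In the same thinned cells *ID1* with *SMAD5* gave between -0.04 and 0.04.

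The genes whose 3 log2 ratios to Ctrl were nearest to those of an *ID* gene were taken among 3344 genes with at least 50 CPM in 1 or more libraries, by the root mean square difference over the 3 time points. For *ID1* they were *GPX2* (difference 0.01), *PITX1* (0.04) and *TDP2* (0.07). *GPX2*, a glutathione peroxidase, was 1467 CPM in Ctrl and 587, 342 and 403 CPM in order of time, and *PITX1*, a homeobox factor, was 183 CPM and then 73.8, 42.3 and 47.5 CPM. For *ID2* they were *ECH1* (0.13), *SLC9A3R1* (0.16) and *FGGY* (0.17), and for *ID3* they were *FAM195A* (0.04), *STRA13* (0.09) and *CENPV* (0.11). *STRA13* was 816 CPM in Ctrl and 279, 433 and 512 CPM in order of time, and *ECH1* was 85.1 CPM and then 88.1, 42.3 and 24.9 CPM. With 3 ratios per gene that all share Ctrl, such likeness is a description of the course only.

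The rest of the BMP pathway was read from lists of genes written by role. Beside every list stand all 14182 genes, of which 11%, 11.8% and 13.8% were at least 2-fold higher in order of time. At least 2-fold lower were 11.7%, 10.3% and 9.48%. Of 14 further ligands 4 had at least 50 UMIs. *BMP2* and *BMP8B* were at least 2-fold higher at 1-day and 3-day, and these and *GDF11* at 7-day, with a median log2 ratio of the 4 of 0.85, 1.62 and 1.45 in order of time. *BMP8B* had 2 UMIs in Ctrl, so its calls rest on few counts. *BMP2* was 7.90 CPM in Ctrl and 40.9, 74.0 and 82.6 CPM in order of time, a log2 ratio of 3.39 at 7-day (3.19 to 3.59). *BMP2* was thus highest at 7-day, when *BMP4* had come nearer to its Ctrl level. *GDF15*, a distant member of the family, was 61.5 CPM in Ctrl and then 34.7, 35.5 and 72.7 CPM.

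Of 12 receptors and co-receptors in the tables, 9 had at least 50 UMIs. *BMPR2*, *ACVR1* and *ENG* were at least 2-fold higher at 1-day and 3-day, and *BMPR2* and *ENG* at 7-day. *TGFBR3* was at least 2-fold lower at all 3 times. The shares of all genes were 11%, 11.8% and 13.8% higher and 11.7%, 10.3% and 9.48% lower. *ENG* had 4 UMIs in Ctrl, so its calls rest on few counts. *BMPR2*, the type II receptor of BMPs, was 8.53 CPM in Ctrl and 62.7, 50.5 and 37.7 CPM in order of time. *ACVR1*, a type I receptor, was 18.5 CPM and then 74.7, 41.5 and 25.0 CPM, and *BMPR1B*, another type I receptor, was 12.3 CPM and then 12.6, 9.74 and 7.68 CPM. *TGFBR3*, a co-receptor, was 8.97 CPM in Ctrl and at most 0.985 CPM after treatment. Their median log2 ratio was 0.22, 0.37 and 0.45.

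Of the BMP lists, that of the antagonists had the highest median ratios at 3-day and 7-day. Of 16 antagonists 7 had at least 50 UMIs, and of these 4 were at least 2-fold higher at 1-day (*FST*, *FSTL1*, *FSTL3* and *NOG*), 5 at 3-day (with *CRIM1*) and 6 at 7-day (with *TWSG1*), while 0 were lower at any time. Of all 14182 genes, 11%, 11.8% and 13.8% were at least 2-fold higher in order of time. Over all 7 the median log2 ratio was 1.37, 2.26 and 3.14 in order of time. It is the ratio of *FST* at each time, with *NOG* ranked highest because it had 0 UMIs in Ctrl and so no finite ratio. *FSTL1* had 1 UMI in Ctrl and 5 at 1-day, and the interval of its 1-day log2 ratio held 0 (-0.97 to 7.75). *FST*, the activin- and BMP-binding follistatin, was 112 CPM in Ctrl and 288, 536 and 981 CPM in order of time. *FSTL3*, a related protein, was 2.27 CPM and then 115, 163 and 88.4 CPM, and *CRIM1*, a membrane-bound BMP-binding protein, was 30.6 CPM and then 60.3, 141 and 122 CPM. *NOG*, which encodes the BMP antagonist noggin, had 0 UMIs in Ctrl and was 0.607, 4.85 and 4.65 CPM in order of time, at least 6.07-, 48.5- and 46.5-fold higher than a floor of 3 UMIs in the Ctrl library, before the counting error of the treated libraries.

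Of 15 further SMADs and regulators 13 had at least 50 UMIs. At 1-day *SMAD7*, *SMURF2*, *SKIL* and *TGIF1* were at least 2-fold higher and *SMAD9* lower. At 3-day *SMAD7*, *SMURF2* and *SKIL* were higher, and at 7-day these and *SMURF1*. Among all genes 11%, 11.8% and 13.8% were higher in order of time, and 11.7% were lower at 1-day. *SMAD7*, the inhibitor of TGF-β and BMP receptors, was 4.33 CPM in Ctrl and 27.0, 28.5 and 16.9 CPM in order of time, so at 3-day it was still far above Ctrl when *SMAD6* was 1.24-fold above it. *SMURF2*, a ubiquitin ligase for SMADs and their receptors, was 22.9 CPM and then 75.9, 107 and 117 CPM. *SMAD4* was between 12.0 and 15.2 CPM and *SMAD2* between 35.2 and 42.4 CPM. *SMAD9*, the third BMP SMAD, was 1.30 CPM in Ctrl and then 0.273, 0.685 and 1.46 CPM along the time course. Over all cells it was lowest at 1-day, like *SMAD1* and *SMAD5*. For the 13 genes the median log2 ratio was 0.65, 0.74 and 0.38.

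**Figure D5:**
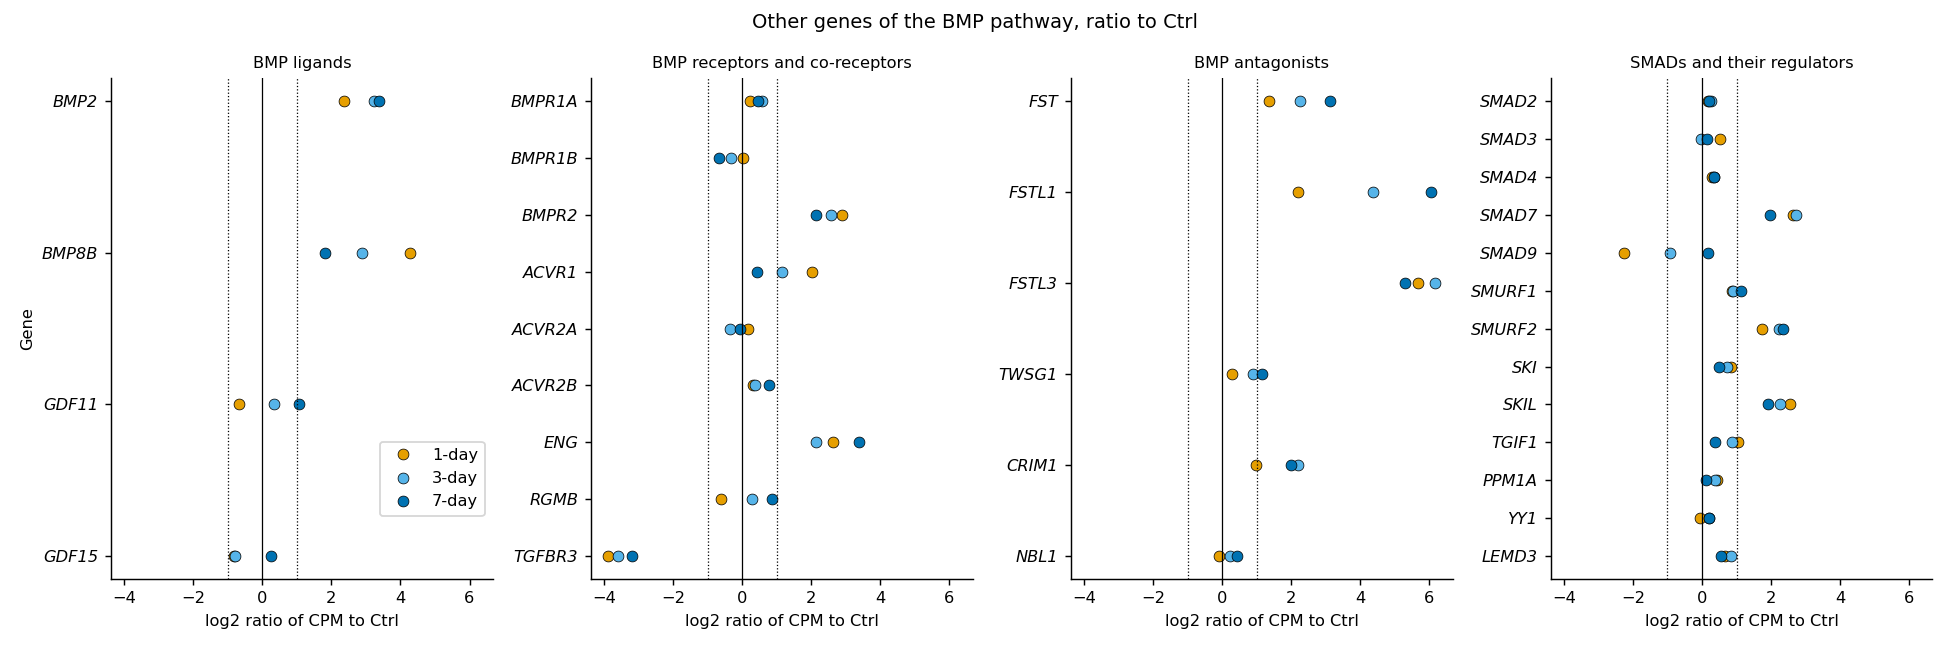
Log2 ratio of CPM to Ctrl (x axis) at 1-day, 3-day and 7-day (colours) for ligands, receptors, antagonists and SMAD regulators with at least 50 UMIs (y axis), with dotted lines at a 2-fold difference and without NOG, which has 0 UMIs in Ctrl. FST, FSTL1 and FSTL3 lie to the right of the 2-fold line at all times and TGFBR3 to the left.

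Other genes known as BMP targets did not follow the *ID* genes as a group. Of 14 listed, 7 had at least 50 UMIs, and *HEY1*, *MSX2*, *ZNF503*, *SMAD7* and *NOG* were at least 2-fold higher at 1-day and *ZNF503*, *SMAD7* and *NOG* at 3-day and 7-day, against 11%, 11.8% and 13.8% of all genes in order of time. *HEY1* and *MSX2* had 23 and 24 UMIs in Ctrl, so their calls rest on few counts. *ATOH8* was at least 2-fold lower at each time, at 2.87 CPM in Ctrl and 0.637, 0.871 and 0.433 CPM in order of time. *HES1*, a repressor that also answers to Notch, was 359 CPM in Ctrl and 219, 214 and 223 CPM in order of time. The median log2 ratio of the 7 was 1.49, 0.93 and 0.93, with *NOG* again ranked highest without a finite ratio. *SMAD7* and *NOG* are also on lists above.

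The partners of ID proteins and genes that these act on were read in the same way. Of 19 listed, 15 had at least 50 UMIs. *CDKN1A*, *CDKN2B*, *ETS1*, *SNAI1* and *SNAI2* were at least 2-fold higher at all 3 times, *ETS2* at 1-day and *HIF1A* at 7-day. *TCF4* was at least 2-fold lower at 3-day and 7-day. For all genes the shares were 11%, 11.8% and 13.8% higher in order of time, and 10.3% and 9.48% lower at 3-day and 7-day. *SNAI1* had 5 UMIs in Ctrl, so its calls rest on few counts. Of the E proteins, *TCF4* was 48.1 CPM in Ctrl and 26.2, 19.4 and 16.2 CPM in order of time, *TCF3* was 50.8 CPM and then 29.1, 42.8 and 40.0 CPM, and *TCF12* was 7.93 CPM and then 14.3, 14.8 and 12.3 CPM. *CDKN1A*, the p21 cell cycle inhibitor that E proteins are known to raise, was 46.4 CPM in Ctrl and 179, 170.4 and 167 CPM, and *ETS1*, a factor that ID proteins can bind, was 2.53 CPM and then 26.8, 68.6 and 83.9 CPM. *ATF3*, listed with the TGF-β response genes, is known to repress *ID1* together with SMAD3 in epithelial cells. It was 9.53 CPM in Ctrl and 17.8, 23.0 and 16.5 CPM in order of time, and its part in the course of *ID1* was not tested. Over the 15 genes of the list of partners the median log2 ratio was 0.65, 0.75 and 0.57.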

How the data were processed

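OVCA420 scRNA-seq was performed at 4 conditions, with 1 library each. The deposited values are raw UMI counts of each gene in each cell, with no scaling. The authors made these counts with Cell Ranger 2.0.1 on GRCh38, per the submitters' processing notes. Of the 10710 barcodes listed, 3170 were used here, those that come first in barcode order, so sums describe part of each library. Cells with more than 200 genes and at most 20% mitochondrial UMIs were retained (3144 cells); the latter limit was set here and removed 26 cells. Between 1 and 7 retained barcodes were shared by any pair of libraries. Scrublet (scanpy 1.11.5) marked 27 cells (0.859%), which were kept except in an alternative, and this number shifted by a few cells with the numerical library used.

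UMIs were summed per library and given as CPM. Since cells are not replicates, no test was made. A gene was called higher or lower past a 2-fold ratio. Values per cell were log-normalized for correlations (natural log of 1 plus the count per 10000 UMIs). Phases used the lists of Seurat 5.3.0. The analysis ran in Python 3.11.15, scipy 1.17.1 and R 4.3.3. The interval and the 2-fold calls were tested on simulated Poisson counts. These hold counting error only, as the interval assumes, so that test does not cover the spread among cells.

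The genes and lists were chosen with earlier results of these data known. List genes could be named at 10 CPM or more in 1 or more libraries, the 3 with the largest 7-day ratio per list first. *NOG*, *TGFBR3*, *SMAD9*, *ATOH8*, *BMP8B*, *ENG*, *FSTL1*, *HEY1*, *MSX2* and *SNAI1* did not meet this and were named after their values were seen, as were *TOP2A* and *MKI67*. For *ID1*, *ID2* and *ID3*, the 3 genes of nearest course were named. The motifs were chosen after the counts had been seen, and a first element with a GTCT end was replaced because it was found upstream of none of the 10 genes. Alternatives planned were G1 cells only, thinning, other scaling, other mitochondrial limits, means over cells, doublets or top cells left out, and parts of each library. UMIs per cell, and S or G2M cells only, were added after the data were examined.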

Additional observations from a re-analysis of the deposited data

Results flagged for a closer look

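*SMAD6* lay on opposite sides of Ctrl in different libraries, at a 1-day log2 ratio of 1.19 and a 7-day log2 ratio of -0.18. *SMAD5* did so within a narrow range, from -0.24 (1-day) to 0.03 (7-day). These were chosen for a closer look because the sign differed between time points. With 1 library per time point neither difference was tested, and the 7-day intervals of both genes hold 0.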

How the results depend on the processing

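No paired analysis was possible because only 1 library was made per condition, and for the same reason no replicate could be left out. Of 386 log2 ratios of the 10 genes recomputed under the alternatives, 309 stayed within the counting interval of the main ratio. A further 72 fell outside it, and 5 more took the other sign from a main ratio whose interval excluded 0. In all 19 changed sign, 14 of them from a ratio whose counting interval held 0 (of *SMAD1*, *SMAD5*, *SMAD6* and *BMP7*). The other 5 were *ID2* at 1-day, 0.26 in G1 cells and 0.0397 in UMIs per cell, and *SMAD1* at 3-day, 0.00358 after thinning, 0.0133 in the later cells in barcode order and 0.20 in UMIs per cell. The counts past 2-fold moved by over 1.5 times in 16 of 426 cases. The number of the 10 genes higher at 3-day was 0 in G1 cells and in the earlier cells in barcode order, and at 7-day it was 1 in the later cells, in S cells and in UMIs per cell. Of all genes, 13.4% and 12.3% were higher at 3-day under those settings, and 14.5%, 14.8% and 25.8% at 7-day. In G1 cells, 2 ligands were lower at 1-day and 1 was higher at 7-day, 5 SMAD regulators were higher and 1 lower at 3-day, and 2 other targets were lower at 7-day. The shares of all genes in G1 cells were 12.4% lower at 1-day and 13.4% higher and 13.3% lower at 3-day. At 7-day they were 16.6% higher and 13.1% lower. After thinning, 1 SMAD regulator was lower at 3-day and 2 other targets were lower at 7-day, against 11.2% and 9.75% of all genes. In UMIs per cell, 4 receptors were higher at 7-day, 7 SMAD regulators and 9 partners of ID proteins were higher at 3-day, and 0 partners were lower. On that scale the shares of all genes moved too. At 3-day 22.9% were higher and 5.39% lower, against 11.8% and 10.3% with scaling, and at 7-day 25.8% were higher, against 13.8%. The cause of these moves was not tested. Counts of under 100 UMIs in a library limit *ID4*, *BMP4* and *BMP7*, whose intervals are the widest.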
